A study of Mus musculus with 8 samples.

Results

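The genes described here mark the two-cell-like state, a transcriptional state that a small share of mouse embryonic stem cells (mESCs) enters for a time. They are a list of 10 named genes, Zscan4a to Zscan4f, Zfp352, Tcstv1, Tcstv3 and Tdpoz4, matched by symbol to the GENCODE vM1 annotation of the mouse genome. The annotation and the count files held 7 of the 10, namely Zscan4b, Zscan4c, Zscan4d, Zscan4e, Zscan4f, Zfp352 and Tdpoz4. No gene line was found under the symbols Zscan4a, Tcstv1 and Tcstv3, and these were not analysed here.

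Cells in the two-cell-like state express transcripts that are otherwise typical of the cleavage embryo at the time its own genome is first switched on. Zscan4 genes encode zinc finger proteins with a SCAN domain, are known for a role in telomere maintenance in mESCs, and are expressed in bursts by few cells at a time. Zfp352 encodes a zinc finger protein of the cleavage embryo, Tdpoz4 encodes a protein with TRAF and BTB domains, and the homeobox factor Dux is known to activate the programme. Because only a few cells are in the state, an RNA level measured over a culture combines how many cells express a gene with how much each holds, and fewer cells of a type and less RNA per cell cannot be told apart in these data.

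RNA-seq libraries from 8 cultures were examined. In 7 of them the cells were of the mESC line R1, and the remaining library held GFP-positive cells sorted from a CDX2-GFP reporter line. The R1 mESC cultures were feeder-free and in medium with serum, and the study's methods do not describe the culture of the reporter line. From 2i and from 2iJ there was 1 library each, both on day 5. The 2i medium held CHIR99021 at 3 µM, a GSK3 inhibitor, and PD0325901 at 1 µM, a MEK inhibitor. The 2iJ medium was 2i with a JAK inhibitor at 2.0 µM. The treatment labels of these libraries name no LIF, a cytokine that activates the JAK-STAT pathway. The study's RNA-seq figure lists 2i without LIF beside 2iJ. There were 3 libraries from 2iJ+B-A, which is 2iJ with BMP4 at 10 ng/ml and an inhibitor of the receptor kinase ALK5 at 10 µM, on days 2, 5 and 11, and the sorted reporter cells came from the same condition on day 2. The 2 remaining libraries were R1 mesoderm progenitors of days 3 and 4, made from embryoid bodies in a medium with B-27 and N-2 supplements and with BMP4, Activin A and Wnt3a. By the study's methods progenitors were taken before or a day after IWP-2, an inhibitor of Wnt secretion, was added on day 3, so the mean of these libraries (n = 2) joins day and IWP-2. No label says that a culture was repeated, so the days of a group stood as its samples, and p-values measure only the spread between these libraries, in which days and any technical differences are joined.

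Gene counts summed to between 19810855, in the sorted library, and 31453888. In the sorted library 29.7% of read pairs were unmapped, against 2.17% to 3.85% elsewhere, so that library stands apart from the rest, and 27.8% of its uniquely aligned pairs lay in no annotated exon, against 7.83% to 13.2%. Summed levels of 6 mESC markers were between 2010 and 4070 CPM (counts scaled to a library total of 1000000 gene counts) in all libraries of mESCs, the sorted one included, and were 900.2 and 83.9 CPM in the mesoderm progenitors. Summed levels of 6 mesoderm markers were 1540 and 582.0 CPM in the mesoderm progenitors and at most 58.7 CPM elsewhere. Summed levels of 6 fibroblast markers were 103.2 CPM in the sorted library and between 8.53 and 15.9 CPM in the other libraries, and each of the 6 was highest in the sorted library.

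The Zscan4 genes lie together on chromosome 7 of the NCBIM37 build, between 11486098 (the start of Zscan4b, ENSMUSG00000091643) and 11988090 (the end of Zscan4f, ENSMUSG00000070828), with Zscan4c (ENSMUSG00000054272), Zscan4d (ENSMUSG00000090714) and Zscan4e (ENSMUSG00000091880) between them. They are near-identical copies, and their coding sequences were between 96.4% (Zscan4b and Zscan4d) and 99.7% (Zscan4b and Zscan4e) identical. The 90 bases of coding exon with the most differences among the 5 copies, from coding position 635, are shown because reads can be assigned to a copy only by such positions. Capitals mark the 11 positions at which the copies differ.
Zscan4b: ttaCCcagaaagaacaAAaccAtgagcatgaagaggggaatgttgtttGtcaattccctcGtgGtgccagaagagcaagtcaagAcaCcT
Zscan4c: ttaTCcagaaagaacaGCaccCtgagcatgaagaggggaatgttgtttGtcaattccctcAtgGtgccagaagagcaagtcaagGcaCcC
Zscan4d: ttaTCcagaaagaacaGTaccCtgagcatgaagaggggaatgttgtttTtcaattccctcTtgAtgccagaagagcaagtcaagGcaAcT
Zscan4e: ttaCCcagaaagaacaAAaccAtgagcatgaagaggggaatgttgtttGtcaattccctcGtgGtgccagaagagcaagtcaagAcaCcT
Zscan4f: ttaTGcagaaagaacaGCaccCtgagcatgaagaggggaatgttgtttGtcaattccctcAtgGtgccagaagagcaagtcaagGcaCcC
The stretch lies at chr7:11486940-11487029 (minus strand), chr7:11594459-11594548 (plus strand), chr7:11748067-11748156 (minus strand), chr7:11892569-11892658 (minus strand) and chr7:11986652-11986741 (plus strand) of NCBIM37. Zscan4b and Zscan4e are the same over all 90 bases, and Zscan4c and Zscan4f differ at 1 of them.

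How far the copies can be told apart was measured by cutting the exons of each gene into all windows of 126 bases, the read length, and counting the exact matches of each window in the whole genome. In Zscan4d 83.1% of windows were unique. The share was 35.9% in Zscan4c, 22.3% in Zscan4b, 12.5% in Zscan4e and 6.04% in Zscan4f, and some windows of these genes matched at 8 places. Reads with several matches were not counted, so the levels of the copies are lower limits to different degrees, and a read pair can also be placed by its mate, which was not evaluated. Zfp352 (ENSMUSG00000070902), on chromosome 4 at 89885511 to 89892393, was unique in each of its 2077 windows, and Tdpoz4 (ENSMUSG00000060256), a gene with a single exon on chromosome 3 at 93600320 to 93601432, in 91.2% of its windows.

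Promoter sequences from RefSeq (GRCm38.p6) were available for Zscan4b, Zscan4c, Zscan4d, Zscan4f, Zfp352 and Tdpoz4. They are given for the 4 Zscan4 genes because their levels were alike in order over the libraries, as described further on. The 100 bases below are the same stretch of each promoter, and capitals mark the 7 positions that differ.
Zscan4b: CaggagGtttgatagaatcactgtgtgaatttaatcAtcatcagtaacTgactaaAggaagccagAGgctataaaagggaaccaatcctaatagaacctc
Zscan4c: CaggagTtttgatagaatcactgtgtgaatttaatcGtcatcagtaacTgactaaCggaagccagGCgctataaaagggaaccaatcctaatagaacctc
Zscan4d: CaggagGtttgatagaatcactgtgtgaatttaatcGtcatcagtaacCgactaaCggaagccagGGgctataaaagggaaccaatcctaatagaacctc
Zscan4f: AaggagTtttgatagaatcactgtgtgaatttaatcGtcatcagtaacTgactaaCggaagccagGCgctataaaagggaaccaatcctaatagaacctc
They lie at chr7:10905051-10905150 (minus strand), chr7:11005622-11005721 (plus strand), chr7:11166183-11166282 (minus strand) and chr7:11397815-11397914 (plus strand), and the annotated start site is 1 base after the stretch in Zscan4b and Zscan4f, 24 in Zscan4c and 35 in Zscan4d. Over all aligned bases the promoters were between 94.7% and 99.6% identical. The letters TATAAA, the core of the TATA box, were present on the strand of the gene in all 4 of them and in neither of the promoters of Zfp352 and Tdpoz4, and 7.59% of 32851 promoters had them within the 250 bases before the start site (12.4% on either strand).

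In 2i and 2iJ the Zscan4 genes had between 19.6 and 91.6 CPM. For Zscan4c the level was 91.6 CPM in 2i, with a 95% Wilson interval of 88.1 to 95.2, and 85.4 CPM in 2iJ, with an interval of 81.9 to 89.0. For Zscan4d it was 85.5 CPM in 2i (82.2 to 89.0) and 84.6 CPM in 2iJ (81.1 to 88.2). Zscan4f had 47.2 and 53.2 CPM, Zscan4e 42.8 and 43.8 CPM, and Zscan4b 19.8 and 19.6 CPM. Per kilobase of exon the values in 2i were 42.9 CPM per kb for Zscan4d, 39.8 for Zscan4c, 24.5 for Zscan4e, 19.4 for Zscan4f and 11.4 for Zscan4b. As the copies lost reads to different degrees, this scale does not order them. Zfp352 (0.702) and Tdpoz4 (1.76), nearly all of whose windows are unique, were below each of the copies on it.

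The effect of the JAK inhibitor on these genes was read between 1 library on each side, and no test was made. The summed level of the 5 Zscan4 genes was 286.9 CPM in 2i and 286.6 CPM in 2iJ, a ratio of 0.999 for 2iJ over 2i with an exact 95% counting interval of 0.968 to 1.03. Single genes had ratios between 0.757 (Tdpoz4, 0.487 to 1.17) and 1.13 (Zscan4f, 1.04 to 1.22). The intervals of Zscan4c (0.933, 0.881 to 0.988) and Zscan4f lay on opposite sides of 1, and those of the other 5 genes included 1. Such intervals cover counting error only and leave out differences between cultures.

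**Figure D1:**
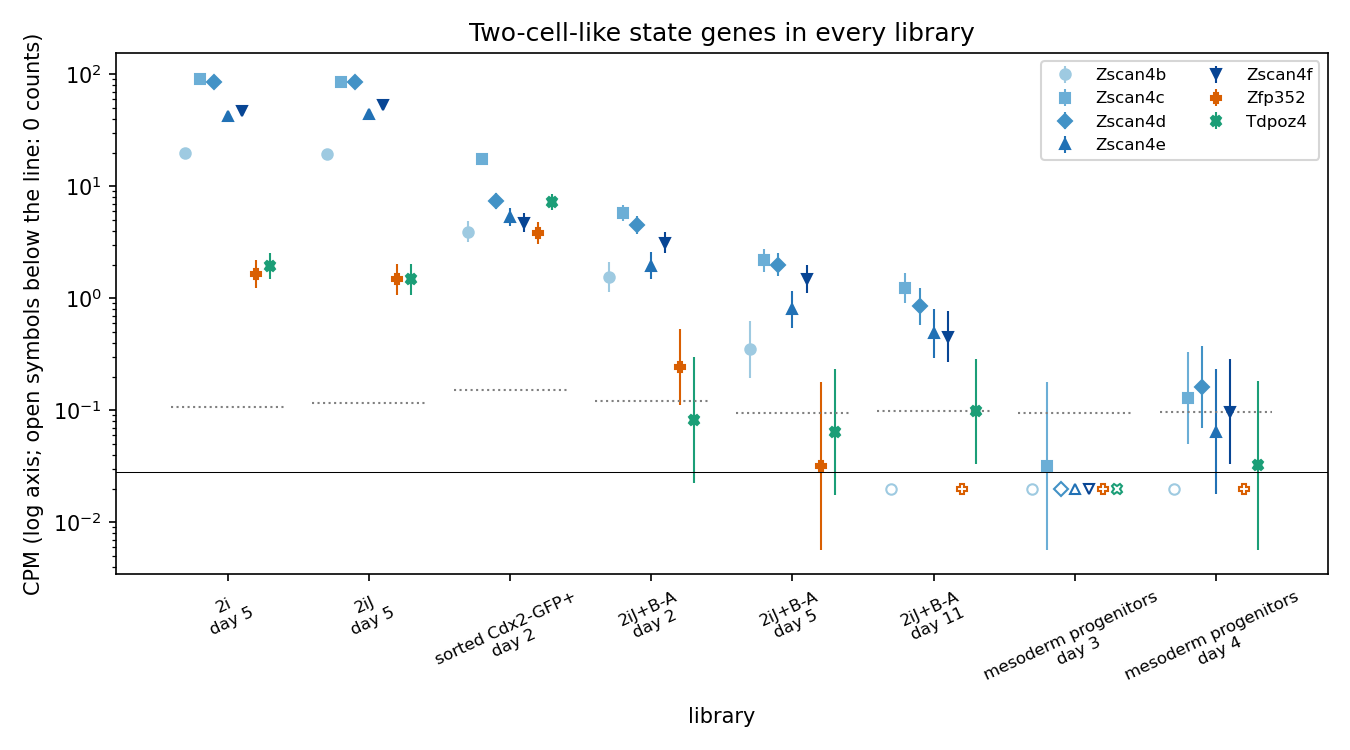
Level of each of the 7 genes in CPM (log axis) in each of the 8 libraries, with 95% Wilson intervals; dotted segments mark the level of 3 counts and open symbols under the horizontal line mark 0 counts. The Zscan4 genes were between 19.6 and 91.6 CPM in 2i and 2iJ and at most 5.75 CPM in 2iJ+B-A, while Zfp352 and Tdpoz4 were highest in the sorted library.

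BMP4 and ALK5 inhibition were examined by setting the 3 libraries of 2iJ+B-A against 2iJ. Zscan4c was at 85.4 CPM in 2iJ and at 5.75, 2.19 and 1.24 CPM on days 2, 5 and 11 of 2iJ+B-A. Zscan4d was at 84.6 CPM in 2iJ and at 4.48, 2.00 and 0.846 CPM on these days. All values of both genes in 2iJ+B-A were below those in 2i and 2iJ, and the highest of them was several times the lowest. Zscan4e had 1.96, 0.795 and 0.488 CPM and Zscan4f 3.14, 1.49 and 0.456 CPM. Zscan4b, the lowest of the copies, had 1.55 and 0.350 CPM and had 0 counts on day 11, where the Wilson interval reached up to 0.125 CPM. The summed level of the 5 genes in 2iJ+B-A was 8.91 ± 7.16 CPM (SD, n = 3), against 286.6 CPM in 2iJ.

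At the matched day 5, the summed Zscan4 counts were 41.9-fold lower in 2iJ+B-A than in 2iJ (exact counting interval 36.6 to 48.2). The ratio of the mean of the 3 libraries to 2iJ was 0.0311, and it was 0.0172 without the library of day 2. Zfp352 had 38 counts in 2iJ and 6, 1 and 0 counts on days 2, 5 and 11 of 2iJ+B-A, and Tdpoz4 had 38 counts in 2iJ and 2, 2 and 3 counts. At day 5 the ratio of 2iJ over 2iJ+B-A was 46.5 for Zfp352 (7.86 to 1885) and 23.3 for Tdpoz4 (6.01 to 199.0), with the width of these intervals set by the few counts.

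All 7 genes were lower in every 2iJ+B-A library than in both 2i and 2iJ, which held for 17.0% of the 16961 genes tested. Zfp352 and Tdpoz4 reached the filter on low counts only through 2i and 2iJ, where they are higher, so their direction is not read from this count. Among genes that reached it without those libraries it held for the 5 Zscan4 genes and for 16.0% of 16608 genes. The size of the difference placed them among few genes. In the mean of log2 CPM the 5 Zscan4 genes were lower by 5.05 to 5.80 log2 units (values of -5.05 for Zscan4c and -5.80 for Zscan4b) and took ranks 3, 6, 7, 8 and 10 from the bottom of 16961 genes, and only 38 genes (0.224%) were lower by over 4 log2 units. Zfp352 and Tdpoz4 took ranks 61 and 69, which the filter partly sets.

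In the edgeR quasi-likelihood test over all genes, 0 of the 7 and 0 of 16961 genes had an adjusted p-value under 0.05 for 2iJ+B-A against 2iJ. Log2 fold changes were -4.87 (SE 0.729, edgeR adjusted p = 0.261) for Zscan4c, -5.41 (SE 0.757, adjusted p = 0.244) for Zscan4e and -4.18 (SE 0.710, adjusted p = 0.343) for Tdpoz4. Before adjustment all 7 genes had p under 0.05, as had 7.61% of all genes. The reference was 1 library, and with 2i and 2iJ pooled as the reference 5 of the 7 passed as lower (Zscan4c, Zscan4d, Zscan4e, Zscan4f and Tdpoz4, edgeR adjusted p between 0.0329 and 0.0411), among 92 genes that passed as lower (0.542%). The DESeq2 Wald test against 2iJ alone also called 5 of the 7 lower, Tdpoz4 among them, where it called 0.865% of all genes lower. As Zfp352 and Tdpoz4 reached the filter only through 2i and 2iJ, their part in the counts of this paragraph is partly set by that filter.

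The named factors and targets around these genes were examined in the same comparison. Dux had 0.853 CPM in 2i and 1.28 CPM in 2iJ, and 0, 4 and 0 counts on days 2, 5 and 11 of 2iJ+B-A. A list of 35 other genes and gene copies of the two-cell-like state gave 27 gene lines, of which 21 passed the filter on low counts. Of these, 18 reached the filter without the 2i and 2iJ libraries. All 18 were below both 2i and 2iJ in each of the 3 libraries, as were 16.0% of all genes that reached it so. Dux, Spz1 and Gm4340 reached it only through 2i and 2iJ. The median log2 fold change of the 21 was -4.23, against 0.03 over all genes, and is partly set by that filter. In edgeR 0 of the 21 had an adjusted p-value under 0.05, and 20 had p under 0.05 before adjustment, beside 7.61% of all genes. DESeq2 called 16 of 20 lower, beside 0.865% of all genes. These counts are also partly set by the filter. Gm5662, the most abundant of the list, had 154.7 CPM in 2iJ and 13.9, 5.95 and 6.05 CPM in 2iJ+B-A, and Tmem92, which the annotation lists under the pseudogene symbol Tmem92-ps, had 27.9 CPM and 2.65, 1.30 and 0.391 CPM.

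Genes known to promote or to restrain the state had smaller median differences. Of 7 promoting genes 0 had an edgeR adjusted p-value under 0.05, with 4 at p under 0.05 before adjustment, 6 lower in 2iJ+B-A and a median log2 fold change of -0.62. Dppa2, which with Dppa4 is known to act upstream of Dux, had 162.9 CPM in 2iJ and 55.6, 58.2 and 37.1 CPM in 2iJ+B-A, and Dppa4 had 130.1 CPM and 76.9, 57.9 and 69.5 CPM. All 3 values of each were below 2i and 2iJ, which held for 17.0% of all genes. Tbx3 was above 2iJ instead, with ratios of 1.37, 2.37 and 1.94 on days 2, 5 and 11. Dppa3 was above 2iJ on day 2 only, with ratios of 1.415, 0.340 and 0.370. Of 20 restraining genes 0 passed in edgeR, with 2 at p under 0.05 before adjustment and a median of -0.06. By sign 13 of them were lower and 7 higher in 2iJ+B-A. Trim28, a co-repressor of retroviral elements, had 1524 CPM in 2iJ and between 1326 and 1738 CPM in 2iJ+B-A. Ratios over 2iJ on days 2, 5 and 11 were 1.51, 2.74 and 1.88 for Myc. They were 1.29, 1.385 and 1.71 for Lin28a and 0.793, 0.713 and 0.669 for Smchd1.

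Change over days within 2iJ+B-A was then examined. The summed Zscan4 level on days 2, 5 and 11 was 16.9, 6.84 and 3.03 CPM. It was 5.58-fold lower on day 11 than on day 2 (counting interval 4.44 to 7.06), and the steps from day 2 to 5 (2.47-fold, 2.09 to 2.93) and from day 5 to 11 (2.26-fold, 1.76 to 2.91) each lay outside counting error. In 6 of the 7 genes the level was lower at each later day, which held for 21.4% of all genes, and Tdpoz4 stayed at 2 or 3 counts. Of the 6, Zfp352 had only 6, 1 and 0 counts. The step of Zscan4e from day 5 to 11 lay within counting error (1.63-fold, 0.825 to 3.32).

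The slope on log2(day) was between -2.30 (Zscan4b) and -0.83 (Zscan4e) log2 units per doubling of time in the 5 Zscan4 genes, and it was -0.92 (SE 0.206) in Zscan4c. By edgeR 0 of the 7 and 0 of 16961 genes had an adjusted p-value under 0.05 (0.827 for Zscan4c), and before adjustment 6 of the 7 had p under 0.05, as had 5.92% of all genes. The DESeq2 Wald test gave a call of falling for 4 of the 6 it could adjust (Zscan4b, Zscan4c, Zscan4d and Zscan4f), where 0.234% of all genes were so called. The spread in this fit came in part from the mesoderm progenitors. Without the day 3 mesoderm library 4 of the 7 passed in edgeR as falling, beside 112 of 16668 genes (0.672%), and without the day 4 mesoderm library 5 passed, beside 141 of 16686 genes (0.845%). Of the 21 other genes of the state 21 had a negative slope. At each later day 12 of them were lower, as were 21.4% of all genes.

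**Figure D2:**
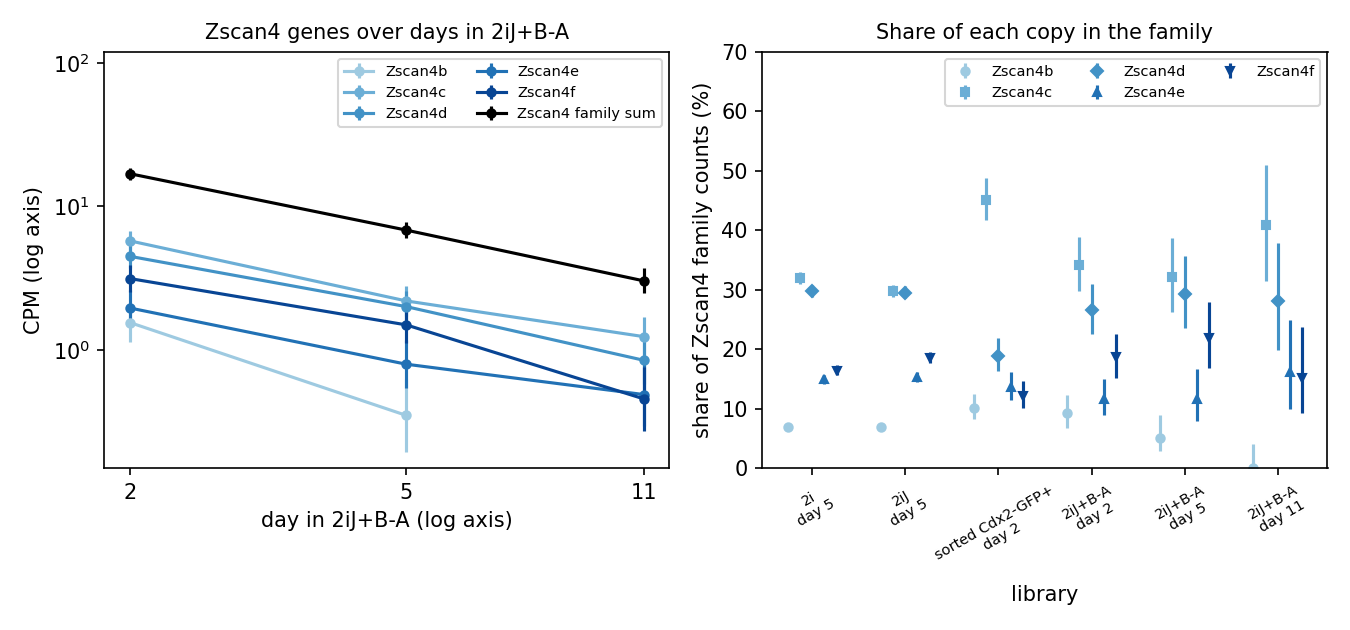
Left, level of each Zscan4 gene and of their sum in 2iJ+B-A (CPM, log axis) against day (log axis), with 95% Wilson intervals and Zscan4b left out on day 11, when it had 0 counts; right, share of each gene in the Zscan4 counts of each library (percent) with 95% Wilson intervals. The sum went from 16.9 CPM (day 2) to 3.03 CPM (day 11), and the share of Zscan4c was 45.1% in the sorted library and 29.8% in 2iJ.

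The copies were also compared by their share of the Zscan4 counts in each library. Zscan4c took 29.8% of the counts in 2iJ (Wilson interval 28.8 to 30.8) and 34.1% (29.7 to 38.8), 32.1% (26.2 to 38.6) and 40.9% (31.4 to 51.0) on days 2, 5 and 11 of 2iJ+B-A. Zscan4d took 29.5% in 2iJ and between 26.6% and 29.3% in 2iJ+B-A, and its intervals overlapped throughout. The interval of Zscan4c on day 11 did not overlap that in 2iJ but overlapped that in 2i (31.9%, 30.9 to 32.9). Zscan4b had 6.84% in 2iJ (6.29 to 7.44), 9.18% on day 2 and 0 of 93 counts on day 11, with a Wilson interval up to 3.97%.

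Mesoderm progenitors, as differentiated cells of the same line, had almost no reads of these genes. The 7 genes together had 1 count on day 3 and 15 counts on day 4, or 0.0318 and 0.485 CPM, and Zscan4c, with 1 and 4 counts, was the only one seen on both days. Zscan4b and Zfp352 had 0 counts in both libraries. Both mesoderm libraries were below all 3 libraries of 2iJ+B-A in 5 of the 7 genes, which held for 31.0% of all genes. The exceptions were Zscan4b and Zfp352, which were themselves at 0 counts on day 11 of 2iJ+B-A. Among the 5, Tdpoz4 had 0 and 1 counts in the mesoderm progenitors and 2, 2 and 3 counts in 2iJ+B-A, so its order rests on very few reads.

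By edgeR 4 of the 7 were lower in the mesoderm progenitors than in 2iJ+B-A, a call that 15.5% of all genes had. Zscan4c had 0.0805 ± 0.0689 CPM in mesoderm progenitors (SD, n = 2) against 3.06 ± 2.38 CPM in the 3 libraries of 2iJ+B-A, with a log2 fold change of -5.16 (SE 0.988, edgeR adjusted p = 0.0140). Zscan4d (-4.83), Zscan4e (-4.87) and Zscan4f (-4.99) passed with adjusted p from edgeR of 0.0255, 0.0214 and 0.0293. Zscan4b was at least 6.58-fold lower against the level of 3 counts per library (edgeR adjusted p = 0.123), a bound that was 1.82-fold without day 2 of 2iJ+B-A. Zfp352 and Tdpoz4 averaged under 3 counts in both groups, so no fold is given. When each mesoderm or 2iJ+B-A library was left out in turn, Zscan4c had log2 fold changes between -6.35 and -4.32. It passed in edgeR without each 2iJ+B-A library (adjusted p of at most 0.0367). Zscan4d, Zscan4e and Zscan4f each missed the threshold in some fits without a 2iJ+B-A library, with edgeR adjusted p of at most 0.0714. With any mesoderm or 2iJ+B-A library left out, their log2 fold changes were -3.80 or further from 0. The number of the 7 that passed was 1 without mesoderm day 3, 3 without mesoderm day 4, and 2, 1 and 5 without days 2, 5 and 11 of 2iJ+B-A in turn, while 2019 to 4538 of all genes passed in either direction.

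Of the 21 other genes of the state, 17 were lower in the mesoderm progenitors by edgeR and 4 did not pass, with a median of -4.55. Of the promoting genes, 4 of 7 were lower, namely Dppa2 (-4.31), Dppa3 (-8.26), Dppa4 (-3.58) and Tbx3 (-1.64). Of the 20 restraining genes, 4 were lower (Trim28, Setdb1, Rif1 and Zfp42, the last with -6.05) and 3 higher (Smchd1, Lin28a and Myc, between 0.60 and 1.16), beside 15.5% lower and 11.5% higher over all genes. Zfp42 is also 1 of the 6 mESC markers. Medium, culture form and days differ between these groups as well as cell type, and these cannot be told apart.

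**Figure D3:**
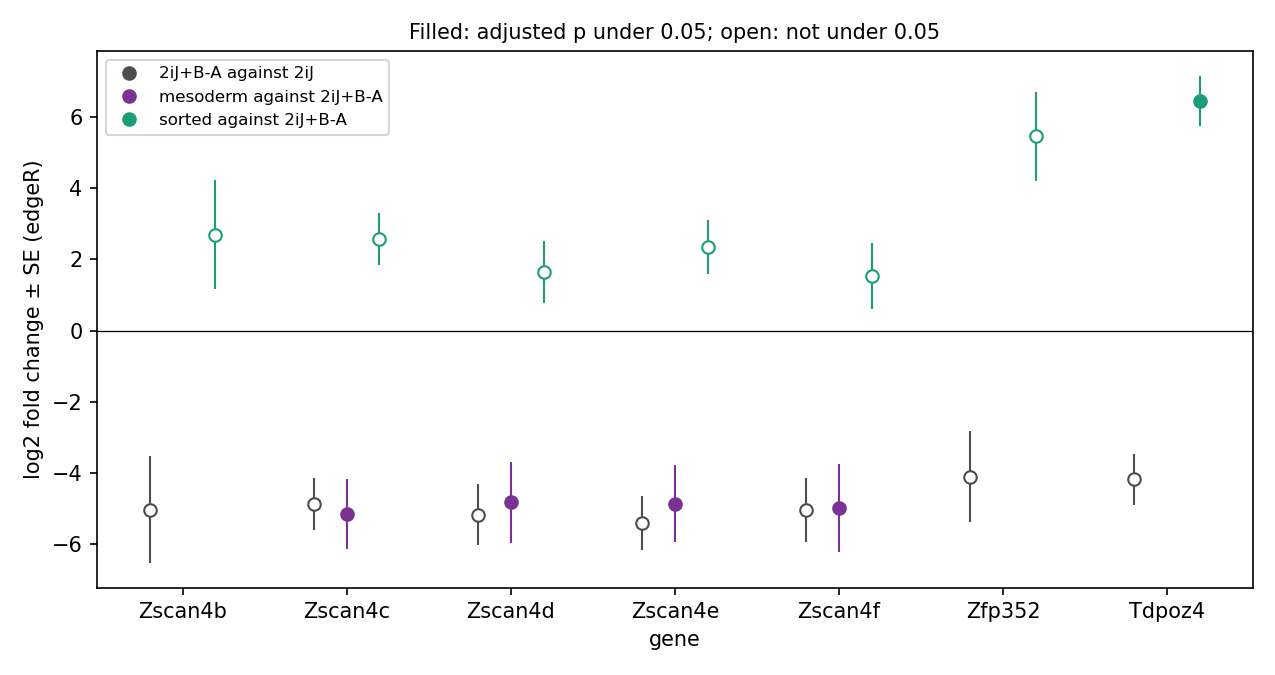
Log2 fold change of each gene (vertical axis) in 3 comparisons, with a standard error derived from the edgeR test statistic. Filled points had an adjusted p-value under 0.05, and genes with at most 1 count over both mesoderm libraries have no mesoderm point. Of 7 genes 4 passed for the mesoderm progenitors and only Tdpoz4 passed for the sorted cells, and all comparisons share the 2iJ+B-A libraries.

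Sorted Cdx2-GFP-positive cells were set against the unsorted cells of 2iJ+B-A, and the comparison of 1 library of another line with 3 of R1 joins line, sort and library quality, which cannot be told apart. All 7 genes were higher in the sorted library than in each 2iJ+B-A library, which held for 33.5% of all genes. Tdpoz4 had 144 counts, or 7.27 CPM (Wilson interval 6.18 to 8.56), against 0.0815, 0.0636 and 0.0977 CPM in 2iJ+B-A. Zfp352 had 3.84 CPM (3.07 to 4.80) against 0.245, 0.0318 and 0 CPM. The summed Zscan4 level was 38.9 CPM, which was 2.31-fold that of the unsorted cells of the same day (counting interval 2.04 to 2.61).

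These genes split by their relation to 2iJ. The sorted library had 13.6% of the summed Zscan4 level of 2iJ, and ratios of single copies were between 0.0871 (Zscan4d) and 0.206 (Zscan4c). Zfp352 and Tdpoz4 were above 2iJ, with ratios of 2.59 (1.74 to 3.94) and 4.92 (3.42 to 7.23). The counted reads of the copies also had other proportions, since Zscan4c took 45.1% of the Zscan4 counts (41.7 to 48.7) and Zscan4d 18.9% (16.3 to 21.9), where each took near 30% in 2iJ (29.8% and 29.5%). The copies differ in their share of unique windows, and line and library quality differ between these libraries. The part of these in the proportions was not tested.

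By edgeR 1 of the 7, Tdpoz4, was higher in the sorted library (log2 fold change 6.46, SE 0.700, adjusted p = 0.0114), a call that 3.34% of all genes had. The sorted group is 1 library, so its own spread was not measured and was assumed to be that of the other groups. Zfp352 had 5.46 (SE 1.25, edgeR adjusted p = 0.0684) and Zscan4c 2.57 (SE 0.729, 0.0881). DESeq2 called 3 of the 7 higher (Zscan4c, Zscan4e and Tdpoz4), where it called 7.30% of all genes higher. Tdpoz4 did not pass in edgeR when day 2, 5 or 11 of 2iJ+B-A was left out (adjusted p = 0.0619, 0.0921 and 0.0568), nor when compared at day 2 on the fitted slope (0.0903), with log2 fold changes between 6.29 and 6.62 in these fits. For the other genes, log2 fold changes at day 2 on the slope were between 0.509 (Zscan4f) and 3.95 (Zfp352), with 1.70 for Zscan4c. Each of these was lower than its value against the 3 days together. Levels of the 6 fibroblast markers were also highest in the sorted library. Summed levels of 5 trophectoderm markers, Cdx2 among them, were 489.4 CPM here and 91.6 to 158.4 CPM in 2iJ+B-A. The sort was on a Cdx2 reporter, so this sum is partly set by it. It was 458.4 and 56.3 CPM in the mesoderm progenitors of days 3 and 4, and Eomes is also a mesoderm marker. Summed levels of the mESC markers were 2010 CPM in the sorted library and 2847 to 3368 CPM in 2iJ+B-A. The part of these markers in the result was not tested.

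Of the 21 other genes of the state, 21 had a positive log2 fold change in the sorted library, with a median of 3.00 against -0.08 over all genes. All 21 were above each 2iJ+B-A library there, which held for 33.5% of all genes. As higher 7 passed in edgeR and 15 in DESeq2, beside 3.34% and 7.30% of all genes. The 7 were the deubiquitinase genes Usp17lc, Usp17le and Dub1 (the first of these is Usp17l5 and the next Dub3 in the annotation), with Sp110, Tmem92, Spz1 and Gm8994. Sp110, a nuclear body protein gene with 56.4% unique windows, had 39.7 CPM against 5.53 CPM in 2iJ and at most 0.978 CPM in 2iJ+B-A (log2 fold change 5.66, SE 0.397, edgeR adjusted p = 0.00382). Spz1, a transcription factor gene of the testis, had 4.69 CPM against 1.40 CPM in 2iJ. Dux was at 0.151 CPM in the sorted library, the level of 3 counts. Of the promoting genes 0 of 7 passed, and of the restraining genes 1 of 20 did, Lin28a, which was lower (-1.37, edgeR adjusted p = 0.0316), as were 2.08% of all genes. DESeq2 called 1 of the 7 promoting and 7 of the 20 restraining genes lower, and 9.05% of all genes.

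**Figure D4:**
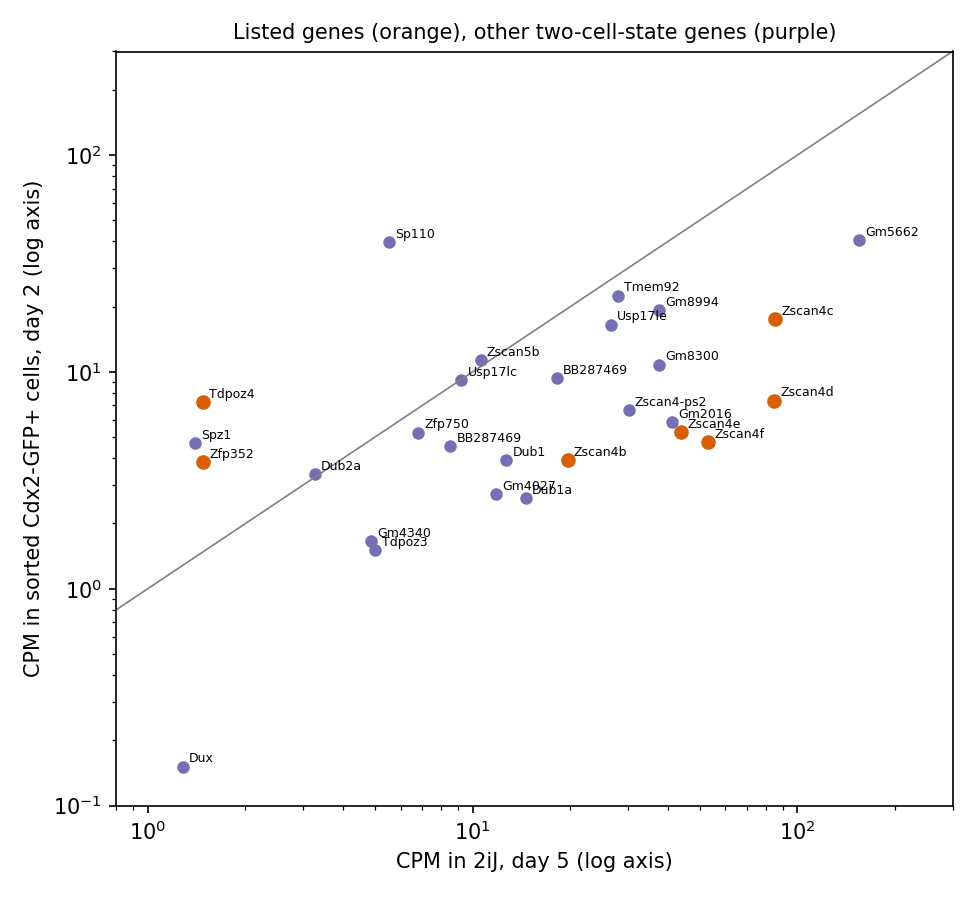
Level in the sorted Cdx2-GFP-positive library (vertical) against 2iJ (horizontal), both in CPM on log axes, for the 7 genes (orange) and 21 tested lines of other two-cell-state genes (purple; BB287469 has 2 lines), with the line of equality. Zfp352, Tdpoz4, Sp110 and Spz1 lie well above the line, and all 5 Zscan4 genes lie below it.

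Genes with a pattern like that of the summed genes over the 8 libraries were taken as the 10 with the highest correlation of log2 CPM among 13851 genes with a mean of at least 1 CPM. They were Gm8300 (r = 0.997), Gm6189, BB287469, Gm4027, Gm8332, Gm5662, Gm2016, Gm4971, Gm5580 and Gm6804 (r = 0.980), and r stayed between 0.965 and 0.996 over the 6 libraries without mesoderm. Of the 10, 5 were in the list of other genes of the state. The points share libraries and depth, and the correlations describe only that. Of the 10, 7 lie on chromosome 12 of NCBIM37 between 88833274 (BB287469) and 89562433 (Gm5662), and Gm8332, Gm4971 and Gm5580 are annotated as pseudogenes. Gm8300 had 44.8 CPM in 2i, 37.6 CPM in 2iJ, 10.8 CPM in the sorted library and 3.26, 1.34 and 0.911 CPM in 2iJ+B-A.

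Among the genes themselves, the pairs of Zscan4 genes had r between 0.954 and 0.999 over the 8 libraries, and Zfp352 and Tdpoz4 had r of 0.961 with each other. Each of these 2 was less like the Zscan4 genes, with r between 0.834 and 0.917 for Zfp352 and between 0.776 and 0.830 for Tdpoz4. Over the 6 libraries without mesoderm these values were 0.773 to 0.876 and 0.645 to 0.765. There r was 0.946 for Zfp352 with Tdpoz4 and 0.958 to 0.998 for pairs of Zscan4 genes. Zfp352 and Tdpoz4 had at most 6 counts in each 2iJ+B-A and mesoderm library, so their r rests mainly on the other libraries. Counts on the strand opposite to each gene were 0% to 7.32% of its reads in the libraries with counts, while over all genes that share was between 5.03% and 6.47%.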

How the data were processed

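Poly-A RNA libraries that keep strand were read as pairs of 126 bases, which the authors aligned with STAR 2.4.2a to NCBIM37 (cutadapt and bcl2fastq 2.17 are also in the submitters' processing notes). The deposited files give counts per gene without normalization, and the annotation release is not given in the sources used here. Reverse-strand counts were used. The genes, lists and tests were chosen with earlier results of these data known. The named genes were the 10 listed, 3 lists of related genes and the 10 most correlated genes. A gene was tested if 2 or more libraries had 10 or more counts (16961 genes). One edgeR 4.0.16 fit (R 4.3.3) covered the 5 groups with TMM scaling and the quasi-likelihood test, with 3 residual degrees of freedom (2 with a slope on log2 day), a biological coefficient of variation of 0.363 and Benjamini-Hochberg adjustment at 0.05. DESeq2 1.42.0 was the alternative test. Both were also run on simulated data with a smaller spread than 0.363, which does not show how they perform at the spread of these data. Correlations used log2 CPM with a prior count of 2. Levels are CPM of gene counts, with 95% Wilson intervals that cover counting error only; 3 counts correspond to 0.0954 to 0.151 CPM. Sequences came from NCBIM37 and, for promoters, from RefSeq. The count among genes that reached the filter without 2i and 2iJ, and the bound of Zscan4b without day 2, were added after seeing the data.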

Additional observations from a re-analysis of the deposited data

Results flagged for a closer look

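Reads that no comparison used stood out in the sorted Cdx2-GFP-positive library, where 29.7% of read pairs were unmapped against at most 3.85% in the other libraries. Of its uniquely aligned pairs 27.8% lay in no annotated exon, against at most 13.2%.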

How the results depend on the processing

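Depth limits the low values: 3 counts were 0.0954 to 0.151 CPM, and Zfp352 and Tdpoz4 lay near this level in 2iJ+B-A. Over 28 results of single genes and 302 alternatives, 259 kept direction and side of the threshold, 29 newly passed, 13 no longer passed and 1 turned, the slope of Tdpoz4 on log2 day (0.10), which was -0.31 without day 11 of 2iJ+B-A and 0.54 without day 2. For 2iJ+B-A against 2iJ 0 genes passed in edgeR. DESeq2 called 5 of the 7 genes and 309 of all genes there, and a pooled 2i and 2iJ reference gave 5 and 150. Tdpoz4 was among the 5 in both and reached the filter only through 2i and 2iJ. For the sorted cells (1 of the 7, 919 of all), 2 and 1390 passed with no filter on low counts, 3 and 2665 in DESeq2, 0 and 1911 with only the groups compared (5 of the 7 tested, without Tdpoz4), and 0 and 27 at day 2 on the slope. For the slope (0 and 0), 2 of all genes passed with no filter, and DESeq2 called 4 of the 7 and 115 of all. Leaving out 1 library at a time gave 1 to 5 of the 7 and 2019 to 4538 of all genes for the mesoderm progenitors (4 and 4584), 0 to 2 and 37 to 2052 for the sorted cells, and 0 to 5 and 0 to 469 for the slope. The libraries left out in turn here were those of the mesoderm progenitors and of 2iJ+B-A. Where leaving 1 out left a group with 1 library, that library was assumed to vary like the other groups. Causes were not tested. No paired analysis was possible because the groups do not share replicate numbers that mark the same culture.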
